A study of Mus musculus with 4 samples.

Results

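Wnt proteins are secreted, lipid-modified ligands that act over short distances through Frizzled receptors with the coreceptors Lrp5 and Lrp6, or with Ror and Ryk receptors. In the canonical branch they stabilize β-catenin, which then drives target genes together with Tcf and Lef factors, and in the noncanonical branches they act on cell polarity and calcium. R-spondins are secreted proteins that bind Lgr receptors and keep Frizzled at the cell surface by removing the E3 ligases Znrf3 and Rnf43. In skeletal muscle, Wnt signals are known for roles in satellite cells, in connective tissue cells and in the clustering of acetylcholine receptors at the neuromuscular junction.

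Transcripts of 9 Wnt ligands, Wnt2, Wnt2b, Wnt4, Wnt5a, Wnt5b, Wnt9a, Wnt10b, Wnt11 and Wnt16, and of R-spondin 3 (Rspo3) were read from quadriceps RNA of wild-type (WT) mice and of Mef2dα2 Eko mice, called Eko here. These 10 genes were taken by symbol from the 51826 rows of the expected count table, and each symbol stood on 1 row. They were chosen with the counts and genotype differences of these same libraries in view. The values of the 10 genes are therefore a description, and no p-value is given for any of them. Edited mice carried a homozygous germline deletion of the muscle-specific α2 exon of Mef2d (Mef2dα2 e-/e-), made with CRISPR-Cas9 on the C57BL6/J background, so every tissue carried it. All mice were sedentary males at about 20 weeks of age, the WT mice (Mef2dα2 wt/wt) were their littermates, and each genotype had 2 mice with 1 polyA-selected library each. Which founder line the sequenced mice came from is not given in the sources used here.

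Total expected counts were between 72626757 and 85176059 per library, and 3 counts, taken as the smallest level a library can show, were worth between 0.0352 and 0.0413 CPM, the count scaled to library size. Intervals on counts and these floors cover counting error only. Gene-level counts cannot tell the α2 exon from the α1 exon, so Mef2d itself, with 18393 to 19687 counts in WT and 17206 to 21695 counts in Eko libraries, does not check the labels. The 8 skeletal muscle fibre markers, Acta1 and Ckm among them, summed to between 139000 and 149000 CPM in every library. Of the 8, 3, Myh4, Ttn and Actn3, were higher in both Eko libraries, against 20.8% of all genes tested. Another 3, Acta1, Myh1 and Myh2, were lower in both, against 23% of all genes tested. Summed adipocyte markers were 31.5 to 81.6 CPM in WT and 11.5 to 26.5 CPM in Eko libraries, and summed macrophage markers were 30.6 to 35.8 CPM and 20.6 to 27.7 CPM. That the adipocyte sums did not overlap rested on Cfd. Without it, a sum chosen after seeing the data, the other 5 markers overlapped. They came to 33.1 and 14.6 CPM in WT and 17.9 and 5.8 CPM in Eko libraries. The log2 fold change was negative in 5 of the 6 adipocyte markers and positive in 1. Its median was -1.14, against -0.01 over all genes tested. Both Eko libraries were below both WT libraries in 2 of 6 adipocyte and 5 of 7 macrophage markers, where 23% of all genes tested were, and each of these markers had more than 3 counts in at least 1 library. In whole muscle, fewer cells of a type and less RNA per cell cannot be told apart.

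Per kb of exon, Wnt4 and Wnt9a were the most abundant Wnt transcripts of the muscle, followed by Wnt11 and Wnt5a. To compare genes, CPM after TMM scaling was divided by the length of each gene's exons in GENCODE release M21 on GRCm38. All annotated exons of a gene were joined, used or not in muscle, so the order depends on these lengths. Before this division Wnt5a, with 7.82 kb of exon, was at 4.39 to 7.01 CPM, and Wnt11, with 4.14 kb, was at 3.45 to 4.42 CPM. On this scale of CPM per kb, Wnt4 averaged 6.01 over the 4 libraries (range 4.50 to 7.79), Wnt9a 4.44 (range 4.32 to 4.56), Wnt11 0.963 (range 0.835 to 1.07) and Wnt5a 0.750 (range 0.561 to 0.896). A middle group held Wnt5b at 0.369 CPM per kb, Rspo3 at 0.300 and Wnt2b at 0.256, and a low group held Wnt10b at 0.0541, Wnt16 at 0.0459 and Wnt2 at 0.0244. The ranges over the 4 libraries overlapped between neighbours within each of these groups, Wnt4 with Wnt9a and Wnt11 with Wnt5a included. They did not overlap between Wnt9a and Wnt11, between Wnt5a and Wnt5b, or between Wnt2b and Wnt10b, where the means differed 4.61-fold, 2.03-fold and 4.74-fold. Wnt4 was above Wnt9a in each of the 4 libraries, although their ranges overlapped.

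**Figure D1:**
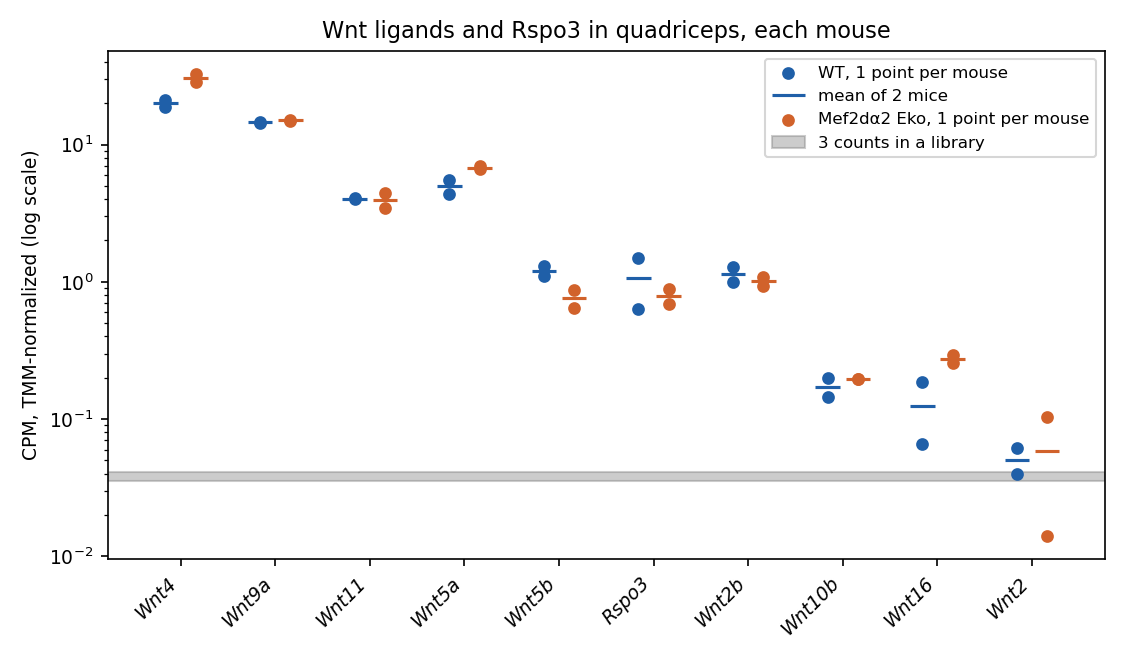
TMM-normalized CPM (log axis) of the 10 genes in each mouse, ordered by their mean CPM per kb, with WT in blue, Eko in orange, short lines at the mean of 2 mice and a grey band at 3 counts per library. Wnt4 lies between 18.9 and 21 CPM in WT and between 28.3 and 32.7 CPM in Eko mice, whereas Wnt2 reaches the band.

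Wnt4 signals in kidney and female reproductive tract development and is one of the Wnt ligands tied to the neuromuscular junction. Its GRCm38 position is chromosome 4, 137277489 to 137299726, plus strand (ENSMUSG00000036856.4), and it overlaps no other gene in GENCODE M21. Wnt4 had 1433 and 1698 counts in WT against 2436 and 2336 in Eko mice. At 18.9 and 21 CPM against 28.3 and 32.7 CPM, both Eko mice were above both WT mice. The gap between the genotypes was wider than the counting error, since the 95% Poisson interval of the higher WT mouse ended at 22.0 CPM and that of the lower Eko mouse began at 27.1 CPM. Mice of the same genotype also differed by more than counting error. Their intervals were 17.9 to 19.9 and 20 to 22 CPM in WT, and 27.1 to 29.4 and 31.4 to 34 CPM in Eko mice. Its level was 19.9 ± 1.49 CPM (n = 2, SD) in WT and 30.5 ± 3.12 CPM (n = 2, SD) in Eko muscle, 1.53-fold higher (log2 fold change 0.61, standard error, or SE, 0.10, edgeR). Dropping any 1 mouse gave log2 fold changes between 0.50 and 0.73.

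Wnt9a, a ligand known from joint and limb development, lies on chromosome 11 from 59306928 to 59333552 on the plus strand (ENSMUSG00000000126.11). Wnt9a had 1092 and 1186 counts in WT against 1308 and 1067 in Eko mice. These came to 14.4 and 14.7 CPM in WT and 15.2 and 14.9 CPM in Eko mice. Both Eko mice lay just above both WT mice, but the difference (log2 fold change 0.05, SE 0.08) was smaller than its error, and the 95% Poisson intervals of all 4 libraries overlapped. The ratio of Wnt4 to Wnt9a, which needs no scaling between libraries, was 1.04 and 1.14 per kb in WT against 1.48 and 1.74 per kb in Eko mice. Per kb of exon, the 2 leading ligands were thus near parity in WT muscle, with Wnt4 ahead in Eko muscle.

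RefSeq windows of 300 bases around annotated start sites (250 before and 50 after, GRCm38.p6) were found for 8 of the 10 genes, 11 windows in all, and not for Wnt5a and Rspo3. The bases upstream of every annotated exon are shown for Wnt4 and Wnt9a, the most abundant ligands, and for Wnt16, a ligand of the low group. Capitals mark GGGCGG, the GC box bound by Sp-family factors, on either strand, and its matches in Wnt4 include overlapping ones. The windows are plus strand, chr4:137277385-137277488 for Wnt4, chr11:59306680-59306927 for Wnt9a and chr6:22287977-22288226 for Wnt16.
Wnt4: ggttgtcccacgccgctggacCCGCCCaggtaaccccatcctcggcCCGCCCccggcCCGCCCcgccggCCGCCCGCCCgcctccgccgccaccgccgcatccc
Wnt9a: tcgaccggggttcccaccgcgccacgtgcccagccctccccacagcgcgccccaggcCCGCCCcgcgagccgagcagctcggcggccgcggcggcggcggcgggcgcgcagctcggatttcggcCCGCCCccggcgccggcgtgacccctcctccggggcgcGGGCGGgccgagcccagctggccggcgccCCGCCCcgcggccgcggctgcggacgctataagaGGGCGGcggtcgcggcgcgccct
Wnt16: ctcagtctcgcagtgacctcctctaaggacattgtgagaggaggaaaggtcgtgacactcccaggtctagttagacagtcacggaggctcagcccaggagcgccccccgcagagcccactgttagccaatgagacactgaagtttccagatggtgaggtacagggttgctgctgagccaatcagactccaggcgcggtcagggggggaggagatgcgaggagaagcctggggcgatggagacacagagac

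The whole windows of Wnt9a and Wnt4 held 58 and 51 CpG dinucleotides, numbers reached by 0.11% and 0.715% of the 32851 windows in the RefSeq table, whose median was 7. Of the 11 windows of the members, 9 were above that median, and the window of Wnt16 held 10. Outside the members, the windows of Wnt3a and Wnt7a held 45 and 42 CpG dinucleotides, and neither gene had a count in any library. GGGCGG on either strand stood in 8 of the 11 windows and in 35.7% of all windows. The TCF core CTTTGA, searched on both strands, stood in 2 of the 11 windows, 1 each of Wnt11 and Wnt5b, and in 16.0% of all windows. The MEF2 consensus, searched on both strands, stood in 0 of the 11 windows and in 3.19% of all windows, which says only that these letters are not in these windows.

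Wnt5a and Wnt5b are closely related ligands best known for noncanonical signals through Ror receptors. Wnt5a (chromosome 14 from 28504750 to 28527448) had 417 and 355 counts in WT against 604 and 471 in Eko mice. It stood at 5.50 and 4.39 CPM in WT and at 7.01 and 6.59 CPM in Eko mice, so that the genotypes did not overlap. Its mean was 1.38-fold higher in Eko muscle (log2 fold change 0.46, SE 0.14), and the log2 fold change was 0.32 without WT replicate 2 and 0.63 without WT replicate 1. The counting intervals of the higher WT mouse and the lower Eko mouse, which ended at 6.05 and began at 6 CPM, overlapped. Gm2670 overlaps Wnt5a on the other strand and had at most 4 counts in any library.

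Wnt5b (chromosome 6 from 119432531 to 119544347) lay on the opposite side. Wnt5b had 99 and 89 counts in WT against 75 and 46 in Eko mice, which were 1.3 and 1.10 CPM against 0.870 and 0.643 CPM. Both Eko mice were below both WT mice. The level was 1.20 ± 0.144 CPM (n = 2, SD) in WT and 0.757 ± 0.16 CPM (n = 2, SD) in Eko muscle, and the log2 fold change was -0.66 (SE 0.27). At this depth the counting interval of WT replicate 2, 0.884 to 1.35 CPM, overlapped that of Eko replicate 1, 0.684 to 1.09 CPM. The ratio of Wnt5a to Wnt5b was 1.43 and 1.35 per kb in WT against 2.73 and 3.47 per kb in Eko mice. Fbxl14 overlaps Wnt5b on the other strand, had 1005 to 1177 counts per library and a log2 fold change of 0.04 (SE 0.08). The library kit keeps the strand, but the setting used in counting is not given in the sources used here.

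Wnt11, a noncanonical ligand of convergent cell movements that has also been tied to the neuromuscular junction, lies on chromosome 7 from 98835112 to 98855195. It had 304 and 328 counts in WT against 381 and 247 in Eko mice. Its level was 4.03 ± 0.0352 CPM (n = 2, SD) in WT and 3.94 ± 0.683 CPM (n = 2, SD) in Eko mice. The WT mice lay between the Eko mice, which stood at 4.42 and 3.45 CPM, and the log2 fold change was -0.03 (SE 0.16). The counting intervals of the Eko mice, 3.99 to 4.89 and 3.04 to 3.91 CPM, did not overlap, so these mice differed from each other by more than counting error. Without Eko replicate 2 the sign turned and the log2 fold change was 0.13. The 9 markers of the neuromuscular junction and of denervation, including Chrna1, Chrne and Musk, summed to 59.5 to 66.7 CPM in WT and 54.0 to 68.3 CPM in Eko libraries, so they too overlapped.

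Wnt2b (chromosome 3 from 104945272 to 104961921), which acts with Wnt2 in forming the lung, had 97 and 81 counts in WT against 94 and 67 in Eko mice. Its genotypes overlapped, at 1.00 to 1.28 CPM in WT and 0.937 to 1.09 CPM in Eko mice, with a log2 fold change of -0.17 (SE 0.25). Without WT replicate 1 the value was 0.02. Gm43846 overlaps Wnt2b on the same strand and had at most 9 counts in any library. Wnt2 (chromosome 6 from 17988940 to 18030585) had 3 and 5 counts in WT against 9 and 1 in Eko mice, and edgeR's filter on low counts left it out. With 95% Poisson intervals of 0.619 to 8.77 counts in WT replicate 1 and 4.12 to 17.1 counts in Eko replicate 1, no difference between genotypes was detectable at this depth.

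Wnt10b (chromosome 15 from 98770712 to 98778150), a canonical ligand that restrains fat cell formation, had 11 and 16 counts in WT against 17 and 14 in Eko mice. The counting intervals of all 4 libraries overlapped, from 5.49 to 19.7 counts in the lowest and from 9.90 to 27.2 counts in the highest, and the log2 fold change was 0.19 (SE 0.49). Without WT replicate 1 the log2 fold change of Wnt10b was -0.01. Wnt16 (chromosome 6 from 22288227 to 22298522), known from cortical bone, had the widest difference of the 9 genes that passed the filter but few reads, 5 and 15 in WT against 22 and 21 in Eko mice. Both Eko mice, at 0.255 and 0.294 CPM, were above both WT mice, at 0.0659 and 0.185 CPM. The log2 fold change was 1.10 with a standard error of 0.59, and WT replicate 1 carried much of it, since it was 0.56 without that library and 2.04 without WT replicate 2. The counting interval of WT replicate 2, 8.40 to 24.7 counts, held the counts of both Eko mice.

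Rspo3, a signal of blood vessel growth among other roles, differed between the WT mice by more than counting error. Rspo3 (chromosome 10 from 29452416 to 29535867) had 48 and 121 counts in WT against 77 and 49 in Eko mice. The WT mice stood at 0.633 and 1.5 CPM, a ratio of 2.37, on either side of the Eko mice at 0.893 and 0.685 CPM. Their counting intervals, 35.4 to 63.6 and 100 to 145 counts, did not overlap. The log2 fold change was -0.43 (SE 0.42), -0.92 without WT replicate 1 and 0.34 without WT replicate 2, so its sign rested on 1 mouse. Gm48159 on the other strand and Gm20276 on the same strand overlap Rspo3 in GENCODE M21. Summed over 7 endothelial markers, including Pecam1 and Cdh5, the same WT mice were at 160 and 148 CPM and the Eko mice at 138 and 158 CPM, and the summed tenocyte markers were at 115 and 141 CPM in WT and 178 and 112 CPM in Eko mice. The part of these cells in the values of Rspo3 was not tested.

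**Figure D2:**
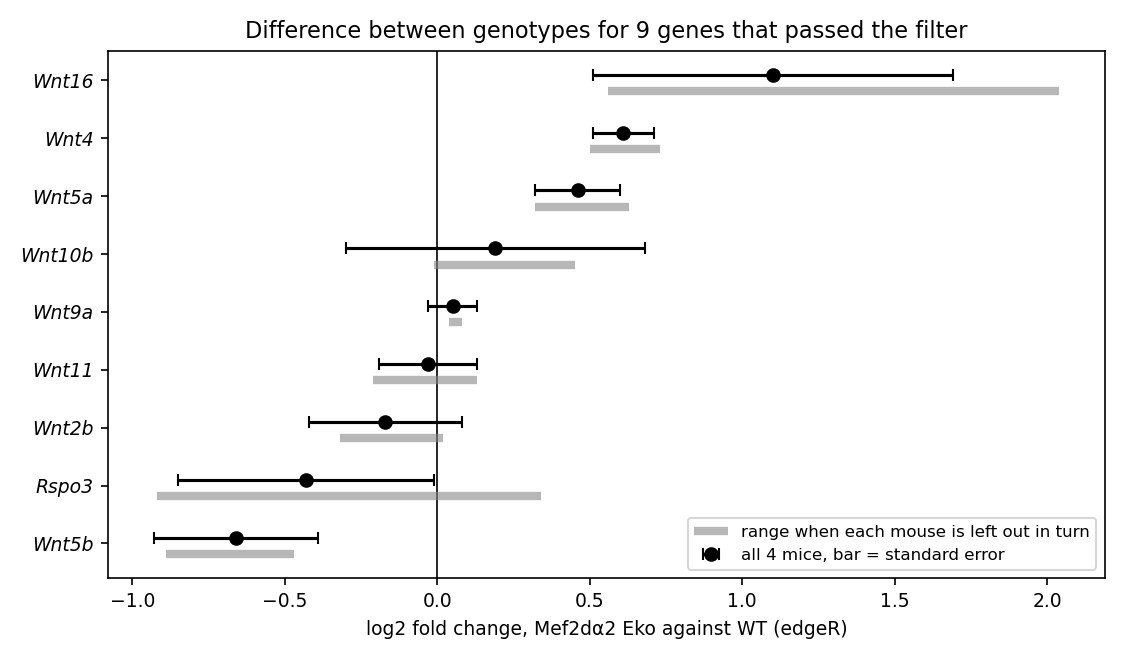
Log2 fold change of Eko against WT for the 9 genes that passed the filter, with black points and bars for the edgeR estimate and its standard error and grey bars for the range when each mouse was left out in turn. The grey bars of Wnt4 (0.50 to 0.73), Wnt5a (0.32 to 0.63), Wnt9a (0.04 to 0.08), Wnt16 (0.56 to 2.04) and Wnt5b (-0.89 to -0.47) stay on 1 side of 0, while that of Rspo3 runs from -0.92 to 0.34.

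Of the 9 genes that passed the filter, Wnt4, Wnt5a, Wnt9a and Wnt16 were higher and Wnt5b was lower in both Eko mice than in both WT mice. Over all 16120 genes tested, the genotypes did not overlap in 43.8%, with both Eko mice above in 20.8% and below in 23%. The median log2 fold change of the 9 genes was 0.05, and that of all genes tested was -0.01. In the quasi-likelihood test of edgeR, Benjamini-Hochberg adjusted over all genes, 0 of the 9 came under 0.05, where 0.416% of all genes did (0.105% higher and 0.31% lower in Eko). At an unadjusted p below 0.05 there were 3 of the 9 against 11.6% of all genes. With DESeq2 1 of the 9, Wnt4, passed the adjusted threshold, and with limma-voom 0 passed. Without WT replicate 2, and likewise without Eko replicate 1, Wnt4 passed in edgeR, and nothing is read from these counts because the genes were chosen on the same contrast. With 2 mice against 2, the smallest two-sided p of an exact permutation test is 0.333.

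The 19 Wnt genes of the mouse, including 10 outside the list of members, summed to 46.2 and 47.3 CPM in WT against 57.9 and 60.5 CPM in Eko mice. Of the 19, Wnt1, Wnt3a, Wnt7a and Wnt8a had no count in any library, which allows a level of up to 0.0413 CPM. Wnt7a is the ligand best known for its action on satellite cells. The only other Wnt gene that passed the filter was Wnt6, with 27 and 39 counts in WT against 24 and 33 in Eko mice (log2 fold change -0.19, SE 0.42, edgeR adjusted p = 0.898). Wnt3, Wnt7b, Wnt8b, Wnt9b and Wnt10a had at most 8 counts in any library. Rspo3 was the main R-spondin, since Rspo1, Rspo2 and Rspo4 had at most 6 counts in any library.

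By CPM per kb, Wnt4, Wnt9a, Wnt11 and Wnt5a made up 90.5% and 91.3% of all Wnt transcripts in WT against 93.4% and 94.0% in Eko mice. The share of Wnt4 was 38.8% and 41.7% in WT against 47.4% and 52.5% in Eko mice and in CPM the mean of Wnt4 was 19.9 in WT and 30.5 in Eko. Wnt9a, with an even level, took 37.3% and 36.7% of the WT sum and 32.1% and 30.2% of the Eko sum. The Wnt5b share was 4.24% and 3.46% in WT and 2.31% and 1.63% in Eko mice. Shares within a library move together, since a larger share of Wnt4 makes the others smaller.

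**Figure D3:**
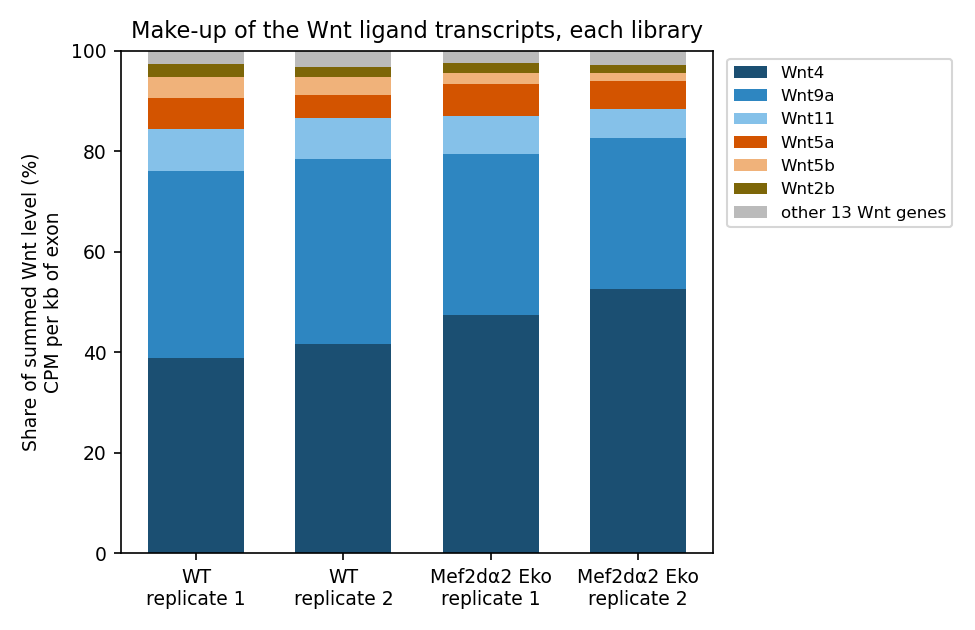
Share of each Wnt gene in the summed CPM per kb of all 19 Wnt genes, 1 stacked bar per library, with the 6 largest named and the other 13 in grey. Wnt4 fills 38.8% and 41.7% of the WT bars and 47.4% and 52.5% of the Eko bars.

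Ligands need the acyltransferase Porcn and the carrier Wls to leave the cell, and receptors to be heard. Over 9 pathway lists, leaving out the members, 65 of 87 genes passed the filter, and the quasi-likelihood test of edgeR put 0 of them under an adjusted p of 0.05. At an unadjusted p below 0.05 there were 12 of the 65, or 18.5%, 7 higher and 5 lower, where 11.6% of all genes tested were under it and 0.416% under the adjusted threshold. With the adjusted threshold, 0 of the 65 passed with DESeq2 or limma-voom. Their median log2 fold change was 0.05 (all genes tested -0.01). Without WT replicate 2, 2 of the genes, Fzd9 and Dkk3, passed the adjusted threshold.

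Of the secretion genes, Wls was at 33.8 and 34 CPM in WT against 27.9 and 28.2 CPM in Eko, with a log2 fold change of -0.28 (SE 0.07, edgeR adjusted p = 0.219). Its mice of a genotype were close together and the genotypes did not overlap, but the difference did not pass over all genes. Porcn had a log2 fold change of -0.14 (SE 0.17, edgeR adjusted p = 0.802). Among 15 receptors and coreceptors that passed the filter, Fzd4, a Frizzled of blood vessels, was at 82.6 ± 5.30 CPM (n = 2, SD) in WT and 69.6 ± 1.33 CPM (n = 2, SD) in Eko mice (log2 fold change -0.25, SE 0.07, edgeR adjusted p = 0.290). Lrp6 was at 74.2 CPM in both genotypes, with a log2 fold change of 0.00 (SE 0.08). The receptor list had a median log2 fold change of 0.03 and a range from -0.29 to 1.08.

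For Rspo3, the receptor Lgr4 had 2903 to 3529 counts per library (log2 fold change -0.12, SE 0.07, edgeR adjusted p = 0.549), while Lgr5 had at most 9 counts. The E3 ligase Znrf3 had 335 to 484 counts per library (log2 fold change 0.08, SE 0.13, edgeR adjusted p = 0.867). Lgr6, named after its values were seen, had 38 counts in each WT library against 25 and 10 in Eko mice, the lowest log2 fold change of the pathway genes at -1.15 (SE 0.46, edgeR adjusted p = 0.406).

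Secreted inhibitors bind Wnt ligands or block the coreceptors, and 8 of 13 passed the filter, with a median log2 fold change of 0.26. Frzb, a Frizzled-related decoy receptor, had 331 and 335 counts in WT against 558 and 396 in Eko mice (log2 fold change 0.50, SE 0.13, edgeR adjusted p = 0.238). Sfrp1 and Wif1, named after their values were seen, had log2 fold changes of 0.57 and 0.55 with adjusted p-values of 0.298 and 0.381 from edgeR. In Frzb, Sfrp1 and Wif1, 3 of the 8, both Eko mice were above both WT mice, against 20.8% of all genes tested. None of these inhibitors passed the adjusted test. Of the 8, 6 had positive log2 fold changes. Sfrp2 and Sfrp4, also named after their values were seen, had negative ones, -0.87 and -0.49. Their adjusted p-values from edgeR were 0.716 and 0.727. Dkk3 had 2696 and 6741 counts in WT against 6242 and 5089 in Eko mice (log2 fold change 0.27, SE 0.33), so WT replicate 1 stood apart below the other libraries in Dkk3, whereas WT replicate 2 stood above them in Rspo3.

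Downstream of the receptors, the 16 intracellular genes stayed within log2 fold changes of -0.21 to 0.17, with Ctnnb1, which encodes β-catenin, at 0.10 (SE 0.07, edgeR adjusted p = 0.616) and Csnk1a1 at -0.01 (SE 0.08, edgeR adjusted p = 0.962). Of 12 β-catenin target genes, 9 passed the filter and their median was 0.13. Axin2, a feedback inhibitor widely used as a readout of canonical signals and named here after its values were seen, had 465 and 495 counts in WT against 616 and 477 in Eko mice (log2 fold change 0.17, SE 0.11, edgeR adjusted p = 0.580). Tnfrsf19 and the cell cycle gene Ccnd1 had log2 fold changes of -0.23 and -0.45 with adjusted p-values of 0.514 and 0.4 from edgeR. The target genes thus lay on both sides of 0, with 6 above and 3 below. Among the 10 planar cell polarity genes, whose median was 0.16, Celsr2 was at 0.16 and Scrib at -0.24, with adjusted p-values of 0.484 and 0.380 from edgeR.

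**Figure D4:**
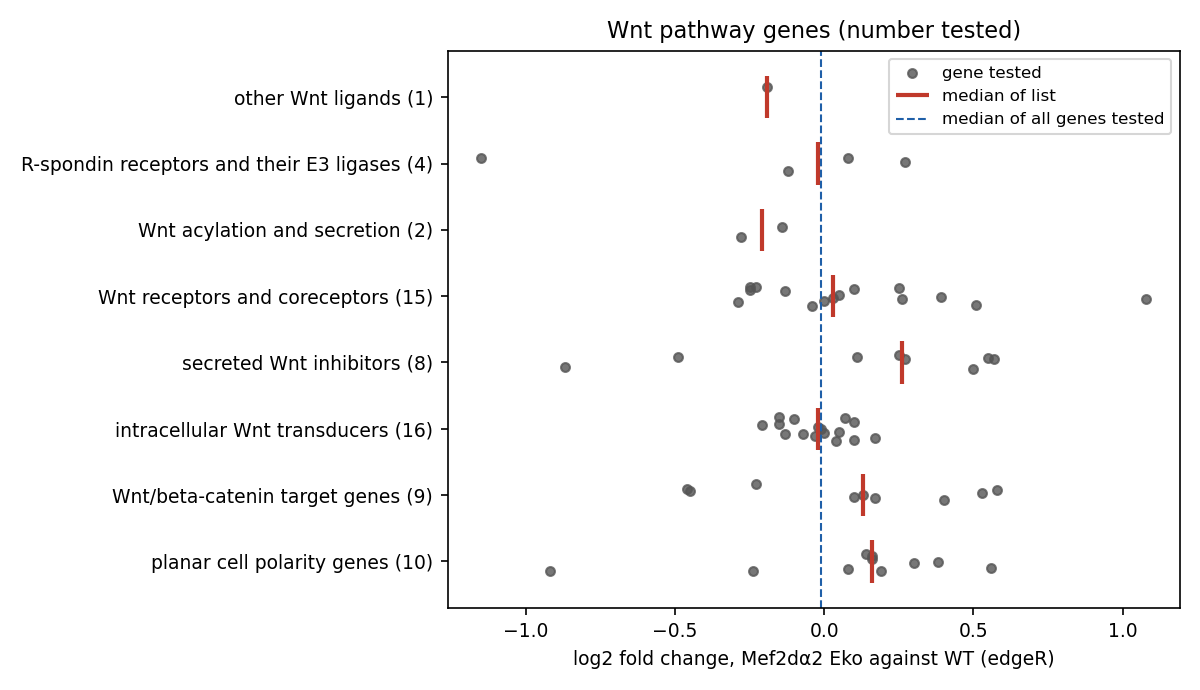
Log2 fold change of Eko against WT for each pathway gene that passed the filter, 1 row per list with the number tested in parentheses, a red line at the list's median and a dashed blue line at the median of all genes tested. The 16 intracellular genes sit between -0.21 and 0.17, and the secreted inhibitors have the highest median, 0.26.

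Other marker lists gave the cell make-up beside which these levels stand. Summed fibroblast and fibro-adipogenic progenitor markers were 382 to 396 CPM in WT and 332 to 412 CPM in Eko libraries, and satellite cell markers were 21.7 to 25.6 CPM and 23.7 to 24.4 CPM, so both overlapped. However, 5 of the 8 fibroblast and progenitor markers were lower in both Eko libraries, against 23% of all genes tested. Of the 5 satellite cell markers, 3 were higher in both Eko libraries, against 20.8% of all genes tested, and 0 were lower in both. Sdc4, at 12.4 to 15.9 CPM the largest part of that sum, was the only satellite cell marker with a negative log2 fold change (-0.12, SE 0.13). Pericyte and smooth muscle markers, at 299 to 313 CPM in WT and 331 to 365 CPM in Eko libraries, and Schwann cell markers, at 46.8 to 48.8 CPM and 52.3 to 60.9 CPM, were higher in both Eko libraries (5 of 7 and 4 of 7 markers, against 20.8% of all genes tested). Each of these markers had more than 3 counts in at least 1 library. The part of any cell type in the values of the Wnt ligands was not tested.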

How the data were processed

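Quadriceps RNA with an integrity number above 7.5 was selected for polyA and sequenced in 2 WT and 2 Mef2dα2 Eko male mice. The authors aligned the reads to mm10 (STAR 2.6.1a in the submitters' processing notes), ran RSEM with Ensembl gene models to obtain expected counts, and the deposited values are these counts, not normalized. All values are whole, so rounding changed none. Groups and replicate numbers came from the sample labels. The p-values set the genotype difference against a spread between mice that edgeR estimates for each gene with information shared over all genes.

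Counts were compared in R 4.3.3 with edgeR 4.0.16 (quasi-likelihood test, genotype as the sole term, TMM, low-count filter at its defaults, leaving 16120 of the 24621 genes that had any count), with Benjamini-Hochberg adjustment and a threshold of 0.05. The fit was tested on simulated data. The standard error is the log2 fold change divided by the root of F. Positions, exon lengths and overlaps came from GENCODE M21, in which 91.8% of rows matched 1 gene, and promoter windows from RefSeq.

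The members and lists were chosen with earlier results of these data known. Beside the members, the text names the 2 genes of highest CPM in each pathway list and any that passed, and genes named after their values were seen are marked. The alternatives were DESeq2 1.42.0, limma-voom (limma 3.58.1), RLE and upper-quartile scaling, no filter, at least 1 CPM in 2 libraries, a block for replicate number, and each mouse left out in turn.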

Additional observations from a re-analysis of the deposited data

How the results depend on the processing

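Of 96 log2 fold changes of the 9 tested members under the alternatives, 88 moved by less than the spread between mice and 92 kept their sign. The 4 that changed sign, in Wnt2b, Wnt10b, Wnt11 and Rspo3, each came from leaving out 1 mouse. With at least 1 CPM in 2 libraries, Wnt10b, Wnt16 and Rspo3 were not tested. The number of genes called over the whole table, 67, was 318 with DESeq2, 799 without the filter, 23 with at least 1 CPM in 2 libraries and 99 to 299 with each mouse left out. Of the members, 0 were called, against 1 (Wnt4) with DESeq2, 2 (Wnt4 and Wnt5a) without the filter, and 0 to 1 with each mouse left out. Of the other pathway genes, 0 were called, against 4 (Ccnd1, Fzd9, Frzb and Myc) without the filter and 0 to 2 with each mouse left out. The cause of these moves was not tested.

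With the replicate number as a block, 186 genes were called over the whole table and 1 member, Wnt4. The labels give each mouse a replicate number and a mouse number, but do not say which mice form pairs. The deviations of replicate 1 of both genotypes from their means correlated at 0.162 across genes. With 2 mice per genotype this value cannot decide whether mice were paired, so the block is given as an alternative only. Depth limits Wnt2, Wnt10b and Wnt16, which had at most 22 counts in a library.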
